A study of Mus musculus with 6 samples.

Results

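The dual-specificity MAP kinase phosphatases are a family of enzymes that switch off mitogen-activated protein (MAP) kinases, and 10 of their genes (Dusp1, Dusp4, Dusp5, Dusp6, Dusp7, Dusp8, Dusp9, Dusp10, Dusp14 and Dusp16) are described here out of 43346 genes counted. Rows of the count table were matched to these symbols through their Ensembl mouse identifiers, and all 10 genes were found once each. The family was chosen by a measured value, the strong rise of Dusp10 in erastin against DMSO libraries, so the differences between erastin and DMSO given for the members are descriptions and carry no test. All 10 also passed the filter on low counts that left 14000 genes for testing.

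The RNA was that of passage 9 mouse embryonic fibroblasts (MEFs) from C57BL/6 mice, primary cells cultured from embryos without immortalization. One group of 3 libraries was made after 24 h with 3 µM erastin, which blocks the cystine/glutamate antiporter and is used to induce ferroptosis, an iron-dependent death by lipid peroxidation. The other 3 libraries came from cells given the solvent DMSO for the same time. The medium described for the cells of both groups held 10% fetal bovine serum and 2-mercaptoethanol, a reducing agent, and the labels do not say whether that agent was present during the treatment. The labels describe the experiment as done in triplicate but do not say whether the replicates were separate embryo preparations, so p-values measure the spread between these libraries, which may be partly technical.

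MAP kinases (ERK, JNK and p38) are activated when a kinase above them phosphorylates a threonine and a tyrosine in the activation loop, and the dual-specificity phosphatases remove both phosphates. Most family members are themselves transcribed in response to MAP kinase activity or stress and so form feedback loops. By textbook grouping, the products of Dusp1, Dusp4 and Dusp5 are inducible nuclear enzymes, those of Dusp6, Dusp7 and Dusp9 are cytoplasmic enzymes that prefer ERK, and those of Dusp8, Dusp10 and Dusp16 prefer JNK and p38. Dusp14 encodes a small atypical member without the kinase-binding domain of the others. In fibroblasts Dusp1 is a classical immediate early gene of the serum response.

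Total counts ran from 13333911 to 20509970 per library, and 3 counts, taken as the smallest detectable level, were worth 0.14 to 0.234 CPM (counts relative to library size, scaled with the TMM factors of edgeR). Libraries of 1 group differed by more than sampling noise (a chi-square of their counts over genes of 11.0 to 19.2 per degree of freedom, and of 78.0 to 123 between groups), so every library was counted as 1 replicate. All 12 fibroblast markers were detected well enough to be tested, with summed levels of 35911 to 38905 CPM with DMSO against 25745 to 27201 CPM with erastin. The summed levels of 7 epithelial markers (14.4 to 17.6 CPM in DMSO and 15.0 to 26.9 CPM in erastin), 6 endothelial markers (5.04 to 8.24 and 15.0 to 18.2 CPM) and 7 haematopoietic markers (26.1 to 46.1 and 29.7 to 60.8 CPM) were far lower. Those of 5 neural markers were 72.2 to 99.9 and 54.5 to 61.2 CPM, and those of 5 muscle markers 86.6 to 107 and 82.0 to 90.6 CPM. The muscle sums hid opposite changes in 2 genes named after their values were seen. Acta1 fell (log2 fold change -1.58, edgeR adjusted p = 1.92e-07) and Des rose (0.72, edgeR adjusted p = 5.37e-05), while Myod1, Myog and Myh3 were too low to be tested. Most of the neural sum was Tubb3, with means of 67.0 CPM in DMSO and 40.2 CPM in erastin. No marker of these 6 lists was at 0 in all libraries. The endothelial receptor genes Kdr and Tek, named after their values were seen, rose with erastin, with log2 fold changes of 1.38 for Kdr (edgeR adjusted p = 0.00172) and 1.45 for Tek (edgeR adjusted p = 0.00117). Of the other endothelial markers, Vwf did not pass (edgeR adjusted p = 0.244), and Pecam1, Cdh5 and Tie1 were too low to be tested. The fibroblast sum was lower and the endothelial sum higher in every erastin library, and the part of this in the values below was not tested. In bulk RNA, more cells with a transcript and more transcript per cell cannot be told apart.

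With erastin, 9 of the 10 phosphatase genes were higher and Dusp7 was lower. The log2 fold changes ran from -0.74 for Dusp7 to 3.81 for Dusp10, with a median of 1.58 against -0.0014 over all 14000 genes tested. All 10 members lay under an adjusted p-value of 0.05 (edgeR quasi-likelihood test), where 43.1% of all genes did, 21.6% higher and 21.5% lower. In all 10 the 3 erastin libraries also lay wholly on one side of the 3 DMSO libraries, as did 52.5% of all genes (26.7% of all genes on the higher side and 25.9% on the lower). Nothing is read from these counts, because the same contrast brought the family forward. The summed level of the 10 members was 323 ± 24.8 CPM with DMSO against 1058 ± 156 CPM with erastin (SD, n = 3 each).

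**Figure D1:**
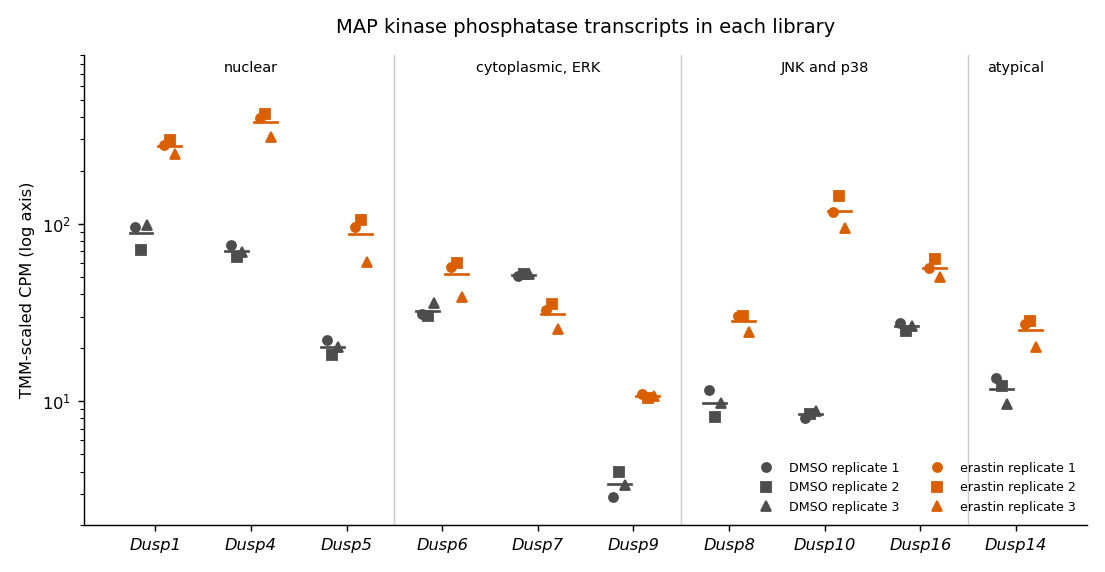
TMM-scaled CPM (log axis) of the 10 phosphatase genes in each of the 3 DMSO (grey) and 3 erastin (orange) libraries; bars are group means and marker shapes are replicate numbers. The groups do not overlap for any of the 10 genes, and Dusp7 is the only one with its erastin libraries below its DMSO libraries.

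The 250 bases before the RefSeq transcription start (GRCm38.p6) are printed for Dusp10, which had the largest difference, and for Dusp7, the gene that was lower. They are also printed for Dusp1 and Dusp8, picked because their windows held a complete cAMP response element. The windows of Dusp5, Dusp6, Dusp14 and Dusp16, which were also higher with erastin, held none and are not printed. Capitals mark every match, on either strand, to the 5 motifs searched: the cAMP response element TGACGTCA, the AP-1 element TGANTCA, the ATF4-type element TGATGCAA, the antioxidant response element core TGACNNNGC and the CCAAT box CCAAT, where N is any base. No match overlapped another.
Dusp10, chr1:184034131-184034380, plus strand: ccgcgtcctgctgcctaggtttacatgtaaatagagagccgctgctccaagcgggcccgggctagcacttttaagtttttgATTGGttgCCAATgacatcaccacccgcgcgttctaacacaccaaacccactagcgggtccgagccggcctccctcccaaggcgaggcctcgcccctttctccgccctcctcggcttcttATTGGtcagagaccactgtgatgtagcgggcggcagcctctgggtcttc
Dusp1, chr17:26508473-26508722, minus strand: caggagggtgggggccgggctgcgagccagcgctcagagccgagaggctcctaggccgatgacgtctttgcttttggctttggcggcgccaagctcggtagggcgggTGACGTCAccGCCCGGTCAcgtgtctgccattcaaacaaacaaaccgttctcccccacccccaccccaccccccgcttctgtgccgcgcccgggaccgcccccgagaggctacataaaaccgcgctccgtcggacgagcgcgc
Dusp8, chr7:142095285-142095534, minus strand: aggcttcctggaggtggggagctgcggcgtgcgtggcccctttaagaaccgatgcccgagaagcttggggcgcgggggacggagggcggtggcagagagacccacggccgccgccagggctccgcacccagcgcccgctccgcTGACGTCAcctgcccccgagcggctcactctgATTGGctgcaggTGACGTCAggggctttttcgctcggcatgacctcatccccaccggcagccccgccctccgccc
Dusp7, chr9:106368382-106368631, plus strand: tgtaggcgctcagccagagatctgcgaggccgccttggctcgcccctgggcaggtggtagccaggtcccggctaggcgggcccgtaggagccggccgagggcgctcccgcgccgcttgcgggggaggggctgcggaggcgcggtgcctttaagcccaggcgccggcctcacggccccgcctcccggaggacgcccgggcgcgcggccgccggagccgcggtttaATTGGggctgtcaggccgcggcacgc

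Windows were found for 8 members, all but Dusp4 and Dusp9. The complete cAMP response element, the palindrome bound by CREB and ATF family dimers, was in 2 of the 8 windows and in 1.55% of all 32851 windows of this length in the table. In Dusp8 it stood at 2 places, at bases 107 to 100 and 63 to 56 before the start, which was so in 0.0304% of all windows. In Dusp1 it stood at bases 143 to 136, and the antioxidant response element core, the letters bound by NRF2 with small MAF proteins, followed on the other strand at bases 133 to 125. That core was in 2 of the 8 windows (Dusp1 and Dusp5) and in 10.2% of all windows. Dusp10 held 3 CCAAT boxes, the letters bound by NF-Y, at bases 169 to 165, 161 to 157 and 49 to 45, and at least 3 stood in 2.79% of all windows. A CCAAT box was in 5 of the 8 windows (Dusp6, Dusp7, Dusp8, Dusp10 and Dusp16) and in 33.8% of all. The AP-1 letters were in 0 of the 8 and in 6.75% of all windows, and the ATF4-type letters in 0 of the 8 and in 0.791% of all. GC content was 56.4% to 77.2% in the members' windows, with Dusp7 the highest, against a median of 52.4% over all windows. These are matches of letters in 1 short window per gene. The windows of Dusp10, Dusp1 and Dusp8 lie inside the annotated gene spans, since other annotated transcripts of these genes begin further upstream, while that of Dusp7 ends at the base before its gene.

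Among the genes whose products prefer JNK and p38, Dusp10 (ENSMUSG00000039384.8, chr1:184013302-184075636, plus strand, GRCm38) stood at 8.01, 8.48 and 8.80 CPM in DMSO replicates 1, 2 and 3 and at 116, 144 and 94.2 CPM in erastin replicates 1, 2 and 3. The lowest erastin library was 10.7 times the highest DMSO library. The DMSO libraries were close together, with a coefficient of variation of 4.70%, against 21.1% in the erastin libraries, where replicate 3 was low. The log2 fold change was 3.81 (SE 0.15), a 14.0-fold difference, and 26 of the 14000 genes had a larger one. A gene on the opposite strand, 1700056E22Rik, overlaps Dusp10 in the annotation, and had 22 reads or fewer in every library, against 1817 or more for Dusp10 in erastin libraries.

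Dusp8, whose product is a stress kinase phosphatase described mainly in brain and heart, was at 11.5, 8.15 and 9.81 CPM in the DMSO libraries, and at 30.0, 30.2 and 24.6 CPM in the erastin ones, in replicate order. Its difference was 2.89-fold (log2 fold change 1.53, SE 0.17). Dusp16, which encodes a large phosphatase that shuttles between nucleus and cytoplasm, ranged from 24.7 to 27.7 CPM with DMSO and from 50.04 to 63.5 CPM with erastin. Its difference was 2.15-fold (log2 fold change 1.11, SE 0.11).

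The inducible nuclear group was higher as a whole. Dusp4 (chromosome 8), which acts on ERK, JNK and p38, was at 76.3, 64.6 and 69.6 CPM in the DMSO libraries, and at 396, 417 and 311 CPM in the erastin ones. Its lowest erastin library was 4.08 times its highest DMSO library, and the log2 fold change was 2.42 (SE 0.11). Dusp5 (chromosome 19), specific for ERK, was at 22.1, 18.2 and 20.2 CPM in the DMSO libraries, and at 96.6, 105 and 60.6 CPM in the erastin ones (log2 fold change 2.12, SE 0.17). Erastin replicate 3 was the low library here, and Dusp5 had the widest relative spread of the family in erastin, with a coefficient of variation of 27.1%.

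Dusp1 (chromosome 17), the founding immediate early member, already had 96.0, 71.6 and 98.8 CPM in DMSO and reached 277, 296 and 249 CPM with erastin (log2 fold change 1.63, SE 0.11). The annotated span of Dusp1 runs into Ergic1 on the opposite strand. The strand setting of the counting is not given in the sources used here, so reads in the shared part cannot be told apart. The same limit holds for Dusp10 and 1700056E22Rik. Opposite-strand genes also overlap Dusp5, Dusp8 and Dusp16 in the annotation, and the same-strand AC122252.1 and AC122252.4 overlap Dusp1, and none of these was counted. Ergic1 had 4563 to 6424 reads with DMSO and 3638 to 5077 with erastin.

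The cytoplasmic ERK phosphatases did not move together. Dusp6 (chromosome 10), a feedback inhibitor of ERK downstream of growth factor receptors, was at 31.2, 30.4 and 35.6 CPM in the DMSO libraries, and at 57.0, 60.0 and 38.8 CPM in the erastin ones. Erastin replicate 3 was only 1.09 times the highest DMSO library, so the groups barely separated. The log2 fold change of 0.68 (SE 0.15) was the smallest of the 9 genes that were higher, and it was 0.86 without erastin replicate 3.

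Dusp7 (chromosome 9), which encodes another ERK phosphatase of the cytoplasm, went the other way. It was at 51.0, 52.4 and 52.0 CPM in the DMSO libraries, the tightest of the family with a coefficient of variation of 1.37%, and at 32.4, 35.2 and 25.5 CPM in erastin libraries. The lowest DMSO library was 1.45 times the highest erastin library, and the log2 fold change was -0.74 (SE 0.12). Without erastin replicate 3, the lowest of the 3, it was -0.61.

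Dusp9 (chromosome X), known from placenta and insulin-responsive tissues, had 38, 72 and 43 reads in the DMSO libraries. Its levels of 2.87, 3.99 and 3.35 CPM in DMSO and 10.9, 10.4 and 10.6 CPM with erastin did not overlap (log2 fold change 1.64, SE 0.24). Its relative spread in erastin was the smallest of the family, with a coefficient of variation of 2.25%. Dusp14 (chromosome 11) ranged from 9.57 to 13.4 CPM with DMSO and from 20.2 to 28.4 CPM with erastin, a 2.16-fold difference (log2 fold change 1.11, SE 0.18).

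To compare levels between members, CPM were divided by the length in kilobases (kb) of the longest annotated transcript. In DMSO the order was led by Dusp1 with 38.4 ± 6.46 CPM per kb, followed by Dusp4 (25.6 ± 2.14), Dusp7 (16.1 ± 0.222) and Dusp6 (11.6 ± 1.01, SD, n = 3 each). Dusp5 (8.14 ± 0.785) and Dusp14 (7.46 ± 1.25) came next, and their libraries overlapped. Dusp16 (5.17 ± 0.299), Dusp10 (3.02 ± 0.142), Dusp8 (2.04 ± 0.347) and Dusp9 (1.25 ± 0.206 CPM per kb) closed the order, each apart from its neighbours in all libraries.

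With erastin the order per kb became Dusp4 (137 ± 20.3) and Dusp1 (118 ± 10.2 CPM per kb), whose libraries overlapped, then Dusp10 (42.3 ± 8.93) and Dusp5 (35.4 ± 9.57), which overlapped as well. Dusp6 (18.6 ± 4.10) overlapped Dusp14 (16.1 ± 2.84), and Dusp16 (11.1 ± 1.32) overlapped Dusp7 (9.66 ± 1.56), while Dusp8 (5.89 ± 0.661) and Dusp9 (3.91 ± 0.0879 CPM per kb) stayed at the bottom. Dusp10 thus moved from place 8 to place 3 and Dusp7 from place 3 to place 8. The lead of Dusp4 depended on the length used: by mean transcript length Dusp1 had 183 and Dusp4 137 CPM per kb with erastin.

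**Figure D2:**
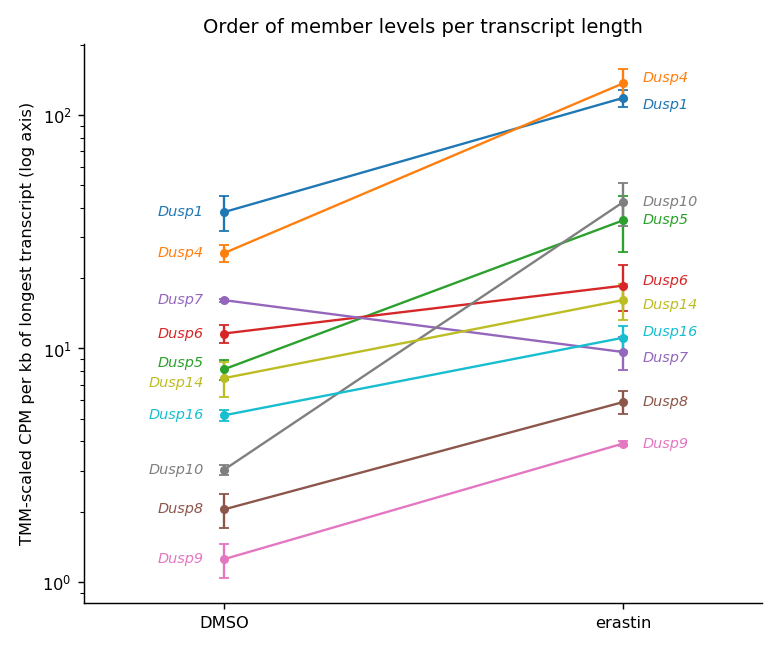
Mean TMM-scaled CPM per kb of the longest transcript (log axis) of each member in DMSO and erastin, with bars for the SD over 3 libraries. The line of Dusp10 climbs from 3.02 to 42.3 CPM per kb past 5 other members, and that of Dusp7 is the only one that falls, from 16.1 to 9.66.

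The make-up of the summed family level per kb shifted accordingly. The sum was 119 ± 9.59 CPM per kb in DMSO and 398 ± 58.7 CPM per kb with erastin. The share of Dusp10 was 2.55% ± 0.267 with DMSO and 10.6% ± 0.837 with erastin, and that of Dusp4 21.6% ± 0.80 and 34.3% ± 0.480 (SD, n = 3 each). The shares of Dusp1, 32.2% ± 3.11 and 30.0% ± 2.06, differed by less than the spread in DMSO. The shares of Dusp7 (13.6% ± 1.31 to 2.42% ± 0.0381) and Dusp6 (9.78% ± 0.788 to 4.63% ± 0.403) were lower with erastin. Without division by length, the net difference in the sum was 735 CPM, and Dusp4, Dusp1 and Dusp10 made up 81.5% of it.

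**Figure D3:**
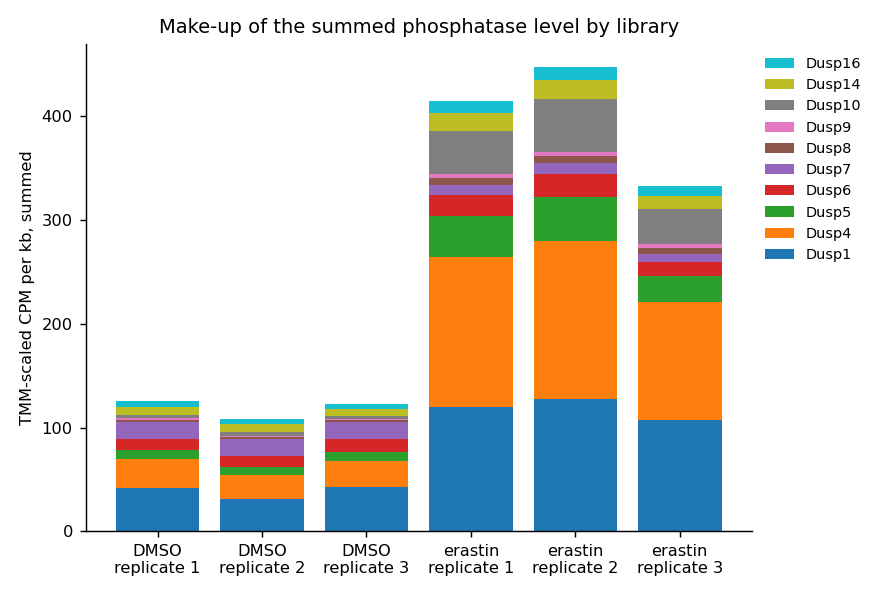
Level per kb of each member stacked within each library, in TMM-scaled CPM per kb from 0. The 3 erastin bars are taller than the 3 DMSO bars, with erastin replicate 3 the shortest of them, and most of the added height is Dusp4 (orange), Dusp1 (blue) and Dusp10 (grey).

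The members also shared an order among the erastin libraries, which the choice of the family did not use. Erastin replicate 3 was the lowest of the 3 erastin libraries for 9 of the 10 members and replicate 2 the highest for the same 9, with Dusp9 the exception. This included Dusp7, the gene that was lower with erastin. Over all 14000 genes tested, replicate 3 was the lowest in 36.8% and replicate 2 the highest in 34.05%. The share of genes with both at once was not computed. In the DMSO libraries there was no such common order: replicate 2 was the lowest for 6 members, replicate 1 for 3 and replicate 3 for 1. The order of the erastin libraries was not confined to the family. The genes that respond to ERK activity are named here after their values were seen. Myc had it, with 133, 145 and 115 CPM in erastin replicates 1, 2 and 3, as did Spry2, Spred2, Spred3, Phlda1 and Ier3. Replicate 3 was also the lowest, but replicate 1 the highest, for Spry4, Etv1, Etv4, Egr1, Fos, Fosl1 and Ccnd1. In Spred1 and Etv5 replicate 3 was not the lowest, nor in Spry1, with 27.9, 23.9 and 37.3 CPM. The members share the same libraries and scaling, so they are not independent witnesses of an order.

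**Figure D4:**
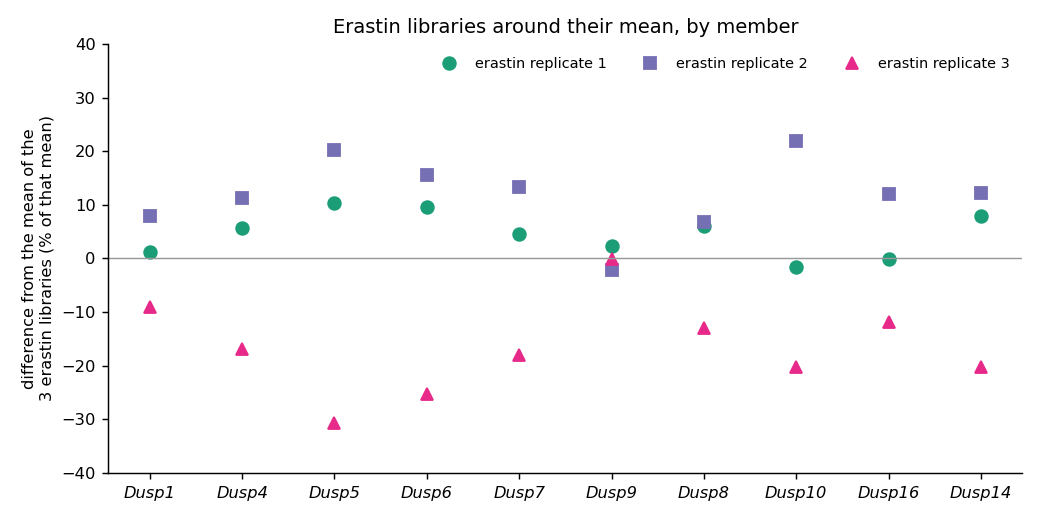
Each erastin library's CPM as a percent difference from the mean of the 3 erastin libraries, for each member. Replicate 3 (triangles) is the lowest of the 3 and replicate 2 (squares) the highest for 9 members, and for Dusp9 all 3 libraries lie near 0.

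By likeness of profile, measured as the root mean square difference of log2 CPM over the 6 libraries after subtracting each gene's DMSO mean, the 5 genes nearest to Dusp10 among 11260 with a mean count of at least 50 were Hmox1, Slc7a11, Hspa1a, Fgf21 and Serpinb2. The distances were 0.069, 0.195, 0.408, 0.432 and 0.501 on the log2 scale. Hmox1 encodes the heme-degrading heme oxygenase and Slc7a11 the transporter subunit blocked by erastin; Hspa1a, an inducible heat shock chaperone gene, has a near-identical neighbour between which reads can be split. Beside the 3.81 of Dusp10, the log2 fold changes of Hmox1, Slc7a11, Hspa1a and Serpinb2 were 3.86, 3.75, 3.40 and 3.51, since with 2 groups the measure mainly follows the size of the difference. Serpinb2 averaged only 0.672 CPM in DMSO. The mean count was taken over all 6 libraries, and Serpinb2 and Fgf21 met its minimum only through their erastin libraries. Fgf21 had a log2 fold change of 4.88. The DMSO mean of Fgf21, 0.202 CPM, lay within the range of 0.14 to 0.234 CPM that 3 counts are worth, so its place depends on the prior count added to the profile. With a prior count of 0.5 in place of 2, 4 of the 5 remained and Gdf15 replaced Fgf21.

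The genes of the kinase cascade that these phosphatases act on were taken tier by tier. Of 14 genes for MAP kinases, among them the substrates, 12 were tested. Of these 4 rose and 1 fell (41.7%, against 43.1% of all genes), with a median log2 fold change of 0.17. This median was 0.059 without erastin replicate 2, 0.30 without erastin replicate 3 and 0.28 with no low-count filter. Mapk6, encoding the atypical kinase ERK3, rose to 435 ± 45.1 CPM from 157 ± 2.79 CPM in DMSO (SD, n = 3; edgeR adjusted p = 5.52e-09, log2 fold change 1.47, SE 0.08). Mapk3, which encodes an ERK kinase, fell to 59.6 ± 7.45 CPM from 92.4 ± 7.87 CPM in DMSO (SD, n = 3; edgeR adjusted p = 0.000174). Of the p38 genes none of Mapk11, Mapk12, Mapk13 and Mapk14, named after their values were seen, passed, with log2 fold changes of -0.35, -0.17, 0.24 and 0.085. Of the JNK genes, also named after their values were seen, Mapk8 rose by 0.60 (edgeR adjusted p = 0.00403). Mapk9 did not pass, with a log2 fold change of 0.095, and Mapk10 was too low to be tested.

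Of 7 genes for MAP kinase kinases, 2 rose and 5 did not pass (28.6% changed, against 43.1% of all genes). The median of 0.044 ran from 0.017 without erastin replicate 1 to 0.11 without erastin replicate 2, and it was -0.0097 with upper-quartile factors. Map2k1, which encodes an activator of ERK, rose to 176 ± 20.6 CPM from 118 ± 3.36 CPM in DMSO (SD, n = 3; edgeR adjusted p = 0.00012). Map2k3, an activator of p38, was higher by 0.27 (edgeR adjusted p = 0.0396), but it did not pass with upper-quartile factors, with the replicate block, or without DMSO replicate 1 or 2 or erastin replicate 1 or 2, where the count was 1. One tier up, 20 of 22 genes were tested, and 4 rose and 1 fell (25% changed, median 0.12). The median was 0.24 without DMSO replicate 3, 0.24 with an offset for GC content and transcript length and 0.22 with no low-count filter. The count of 5 changed genes was 2 without DMSO replicate 2 or erastin replicate 1 and 3 without DMSO replicate 3. Map3k2 rose by 0.60 (edgeR adjusted p = 5.15e-05) and Map3k20, which encodes the ribosome-stress kinase ZAK, fell to 143 ± 7.05 CPM from 193 ± 7.42 CPM in DMSO (SD, n = 3; edgeR adjusted p = 0.000285). Map3k3 was higher by 0.28 (edgeR adjusted p = 0.0287) and lost its call without DMSO replicate 2, without erastin replicate 1 or with upper-quartile factors.

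Below the MAP kinases, 4 of 11 genes for MAP kinase-activated kinases rose and 3 fell (63.6% changed, against 43.1% of all genes). Their median was -0.053. This median was above 0 when any 1 library other than DMSO replicate 3 was left out, at most 0.17 without erastin replicate 1. Rps6ka2 rose by 0.53 (edgeR adjusted p = 0.000447) and Mapkapk5 by 0.41 (edgeR adjusted p = 0.00509). Rps6ka4, which encodes a nuclear kinase activated by ERK and p38, fell to 82.4 ± 5.27 CPM from 123 ± 8.15 CPM in DMSO (SD, n = 3; edgeR adjusted p = 7.43e-05). Mknk2 was lower at -0.39 (edgeR adjusted p = 0.00216), and at -0.19 it did not pass with an offset for GC content and transcript length. Of 12 tested scaffold and adaptor genes of the JNK and p38 cascades 5 rose and 1 fell (50% changed, median 0.30). Gadd45a, a stress-induced activator of the p38 pathway, rose to 130 ± 7.71 CPM from 22.8 ± 4.68 CPM in DMSO (SD, n = 3; edgeR adjusted p = 1.88e-09, log2 fold change 2.51, SE 0.13), and Gadd45b by 0.89 (edgeR adjusted p = 6.12e-05). The adaptor gene Arrb1 was lower at -0.55 (edgeR adjusted p = 0.0299), a call lost without DMSO replicate 2 or 3 or erastin replicate 1 or 3.

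Genes transcribed in response to ERK activity, several of which feed back on it, changed in 13 of 16 cases, 10 higher and 3 lower, against the 43.1% of all genes, with a median of 0.83. Fosl1, encoding an AP-1 subunit, rose to 80.6 ± 16.7 CPM from 9.66 ± 1.61 CPM in DMSO (SD, n = 3; edgeR adjusted p = 3.96e-09, log2 fold change 3.07, SE 0.17). Myc, a growth-promoting transcription factor gene, rose to 131 ± 15.0 CPM from 46.7 ± 3.95 CPM in DMSO (SD, n = 3; edgeR adjusted p = 4.24e-08). The list was split in its feedback genes. Spry1, a Sprouty inhibitor of receptor signalling, fell to 29.7 ± 6.88 CPM from 123 ± 6.50 CPM in DMSO (SD, n = 3; edgeR adjusted p = 2.17e-08, log2 fold change -2.05, SE 0.13), while its relatives Spry2 and Spry4, named after their values were seen, rose by 1.19 and 0.90. Ccnd1, the cyclin D1 gene, fell to 423 ± 6.61 CPM from 638 ± 44.2 CPM in DMSO (SD, n = 3; edgeR adjusted p = 8.16e-06).

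Other phosphatases are described beside the family without a test between them, and their lists were drawn up with earlier results of these data known. Dusp14, an atypical member, is counted with the family and not with the atypical genes here. Of 21 atypical dual-specificity and related phosphatase genes 17 were tested. Of these 2 rose, 1 fell and 14 did not pass (17.6% changed, against 43.1% of all genes). The median of 0.022 ran from -0.021 without DMSO replicate 1 to 0.095 without erastin replicate 2. Dusp3, named after its values were seen, encodes an atypical phosphatase of ERK and JNK and had 125 ± 4.28 CPM in DMSO and 127 ± 4.11 CPM with erastin (SD, n = 3; edgeR adjusted p = 0.842, log2 fold change 0.022, SE 0.08). Ssh2, which encodes a cofilin phosphatase, rose by 0.53 (edgeR adjusted p = 0.0023) and the capping enzyme gene Rngtt by 0.56 (edgeR adjusted p = 0.00636). Dusp27 was lower at -0.85 (edgeR adjusted p = 0.0188), a call lost without DMSO replicate 1 or 2 or erastin replicate 1 or 2. Among 9 other genes whose products dephosphorylate MAP kinases, 7 were tested. Of these 3 rose and 4 did not pass (42.9% changed, median 0.19, and 0.29 without erastin replicate 3). Ppm1b rose by 0.88 (edgeR adjusted p = 5.79e-05) and Ppm1a by 0.68 (edgeR adjusted p = 8.57e-06), both encoding serine/threonine phosphatases. Dusp2, the remaining nuclear member of the family proper and also named after its values were seen, had 3 to 9 reads in DMSO and 6 to 19 in erastin libraries and was too low to be tested.

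**Figure D5:**
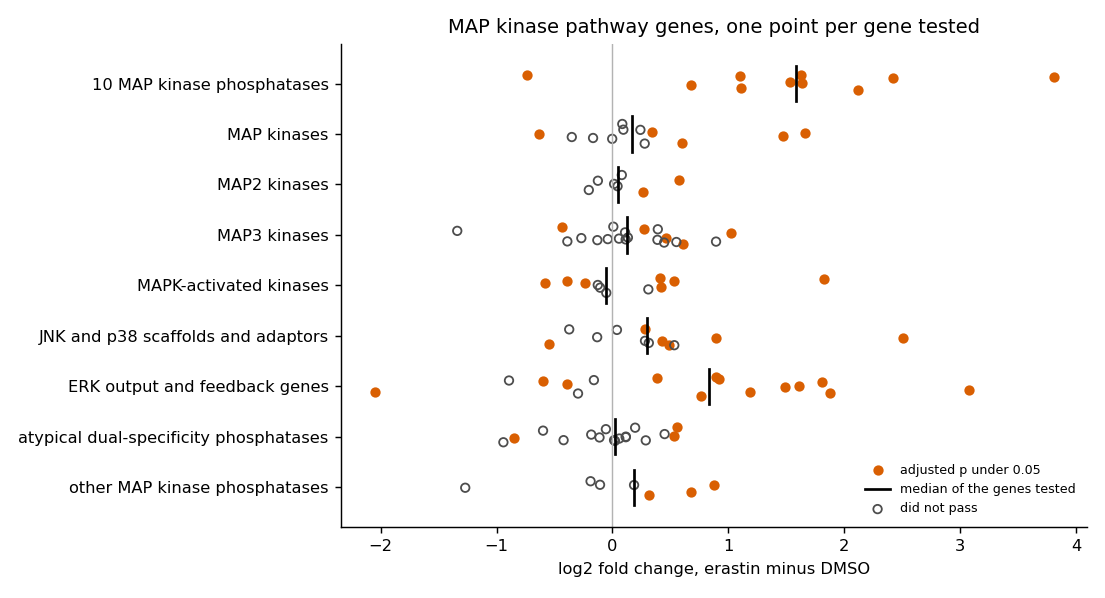
Log2 fold change (erastin minus DMSO) of each tested gene in the 10 phosphatases and 8 pathway lists; filled points passed at an adjusted p-value under 0.05, open points did not, and vertical bars are medians. The phosphatases' median of 1.58 lies to the right of all 8 list medians, of which the ERK output genes' 0.83 is the highest and the MAP kinase-activated kinases' -0.053 the lowest. The family was chosen through this same contrast, so nothing is read from its place.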

How the data were processed

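RNA was measured in 3 DMSO and 3 erastin libraries of MEFs. The labels' protocols describe depletion of ribosomal RNA and sequencing of barcoded libraries on an Ion Proton instrument. The authors deposited whole-number read counts per gene with no normalization; HTSeq 0.9.1, SAMtools and the build mm10 are named per the submitters' processing notes, while aligner, annotation and strand setting are not given in the sources used here. Of 43346 identifiers 42462 had a GENCODE M21 (GRCm38) symbol, matched without version, and 0 columns were unused. Groups and replicate numbers came from the titles.

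Counts were analysed with edgeR 4.0.16 in R 4.3.3: filterByExpr (minimum count 10, minimum total 15), TMM factors, and the quasi-likelihood test of treatment over all 6 libraries, adjusted by Benjamini-Hochberg over 14000 genes at 0.05. SEs are the log2 fold change divided by the square root of its F statistic. The fit was tested on simulated counts in which 200 genes changed, far fewer than in these data. It recovered 68 of 98 genes with a log2 fold change of 1 in size and 88 of 99 with one of 2. It made 18 false calls in 13750 genes, a larger share of the calls made than the 0.05 of the threshold. Equally numbered libraries' deviations from their group means correlated at -0.0055 to 0.040, so no pairing was used.

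The members, lists and tests were chosen with earlier results of these data known. Named were all members, the 2 genes with the smallest p-value per direction among those passing in each list, and the 5 nearest profiles; 1 gene the rule selects is not reported here. Alternatives were other scalings and filters, a replicate block, DESeq2 1.42.0, a GC and length offset (mgcv 1.9-3), an adjusted p-value under 0.01 and leaving out each library. Promoter sequences are from RefSeq (GRCm38.p6). PCR duplicates were not marked by molecular identifiers, so the floor of 3 counts covers counting error only.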

Additional observations from a re-analysis of the deposited data

How the results depend on the processing

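All 10 members kept their direction and stayed under the threshold, 9 higher and 1 lower, in each of the 16 alternatives run. The family was chosen through this same contrast, so nothing is read from that count. The genes changed ran from 4305 of 14000 tested (adjusted p-value under 0.01) to 6104 of 26801 (no low-count filter). When any 1 library was left out (6 fits), from 4802 of 14278 to 5809 of 14463 genes changed. In these fits the log2 fold change ran from 3.64 to 3.95 for Dusp10, from 0.57 to 0.86 for Dusp6 and from -0.84 to -0.61 for Dusp7. With the replicate block 5882 of 14000 genes changed, and the members' counts were 10, 9 higher and 1 lower. Dusp10 then had a log2 fold change of 3.80 and Dusp7 of -0.75. Total-count scaling moved the median of all genes to 0.065 and upper-quartile factors to -0.055.

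List medians near 0 changed sign, and apart from the shift in scaling the cause was not tested. The median of the MAP kinase-activated kinases, reported at -0.053, was 0.018 with total-count scaling, 0.097 with the GC and length offset and 0.081 with the offset and the replicate block, and it ran from -0.011 to 0.175 when 1 library was left out. That of the atypical phosphatases, reported at 0.022, was -0.032 with upper-quartile factors, -0.00098 with the offset and -0.0018 with the offset and the block, and it ran from -0.021 to 0.095 when 1 library was left out. That of the MAP kinase kinases was -0.0097 with upper-quartile factors. Of 29 genes outside the family that the naming rule selects, 24 kept direction and call in all 15 alternatives each and none reversed; the exceptions were Map2k3, Map3k3, Mknk2, Arrb1 and Dusp27. By mean in place of longest transcript length, 6 of the 10 members kept their place in the DMSO order per kb. Dusp10 then stood at place 8 in DMSO and 3 with erastin, and Dusp7 at 2 and 7. Dusp1 stood at place 1 in both groups, and Dusp4 at 3 in DMSO and 2 with erastin. The precision of Dusp9 is limited by its 38 to 72 reads in DMSO libraries.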
